A study of Mus musculus with 6 samples.

Results

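Major histocompatibility complex (MHC) class II molecules are surface proteins that hold peptides from engulfed proteins and show them to CD4 T cells. Each is a pair of an alpha and a beta chain, built with the invariant chain Cd74 in its groove. H2-DM takes out the remnant of Cd74 and H2-DO holds H2-DM back, while the coactivator Ciita switches on the genes as a group. B cells, dendritic cells and macrophages are the cells best known for class II, and cartilage is not known as a tissue rich in it.

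The 10 class II genes described here were H2-Aa, H2-Ab1, H2-Eb1, Cd74, Ciita, H2-DMa, H2-DMb1, H2-DMb2, H2-Oa and H2-Ob. They were taken by gene name from a table of 33971 genes, and each matched 1 row. RNA was sequenced from articular cartilage of wildtype (WT) mice aged 2 months (n = 3 libraries) and 18 months (n = 3), so that young and aged cartilage could be compared. No treatment or transgene was given for either age, and no source used here gives the strain or says whether a library held 1 mouse or several. P-values therefore measure the spread between these libraries, which may be technical. Levels are given in FPKM (fragments per transcript length and library size), which can be compared between genes. Tests were run on counts, and a positive log2 fold change means more RNA at 18 months. Calls required an adjusted p (Benjamini-Hochberg, edgeR's quasi-likelihood test) under 0.05 together with a log2 fold change larger than 1 in either direction.

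Library totals were 48171507 to 51683577 counts at 2 months and 55201357 to 59085179 at 18 months. Counts of Xist, an RNA of the female inactive X, were 88239 to 102417 at 2 months and 11 to 30 at 18 months, while the study's methods speak of male mice, so sex and age cannot be told apart. Of 16 chondrocyte markers, led by the lubricin gene Prg4 and the matrix gene Chad, all 16 were called lower at 18 months, with a median log2 fold change of -6.50, against -0.02 over all 20397 genes tested. Their summed level was 14956 to 18567 FPKM at 2 months, 1727 FPKM in 18-month replicate 1 and 362 to 367 FPKM in 18-month replicates 2 and 3. The neutrophil markers, led by S100a8 and S100a9, the chains of calprotectin, summed to 8.87, 3629 and 57.7 FPKM in 2-month replicates 1, 2 and 3 and to between 41882 and 46932 FPKM at 18 months. In the neutrophil markers, and in the B cell markers given further on, 2-month replicate 2 stood apart from its group, so values that rest on it are also given without it. In bulk tissue, fewer cells of a type and less RNA per cell cannot be told apart.

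Class II genes share short promoter sequences, the X box, which RFX and CREB proteins bind, and the Y box, which NF-Y binds. The RefSeq promoter table (GRCm38.p6, windows of 250 bases before and 50 bases after a gene's start) held 7 of the 10 genes. H2-Ab1, Cd74 and Ciita were not among them. Letters close to the X box, AACNNATG, and to the Y box, GATTGG, were searched on both strands, and they were chosen after the windows had been seen. The X letters occurred in 8.86% and the Y letters in 16.1% of the 32851 windows. Both on 1 strand, with first bases 20 to 40 apart, occurred in 26 windows (0.0791%), and 5 of those belong to H2-Eb1, H2-Ob, H2-DMb1, H2-DMb2 and the neighbouring beta chain gene H2-Eb2. The windows of H2-Eb1, H2-Ob and H2-DMb2 lie outside the annotated exons of these genes and are shown first, 5′ to 3′ with X and Y in capitals, because they show the shared arrangement.
H2-Eb1, chr17:34305732-34305831, plus strand: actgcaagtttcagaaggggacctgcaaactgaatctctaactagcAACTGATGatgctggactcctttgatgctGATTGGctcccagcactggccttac
H2-Ob, chr17:34238770-34238869, plus strand: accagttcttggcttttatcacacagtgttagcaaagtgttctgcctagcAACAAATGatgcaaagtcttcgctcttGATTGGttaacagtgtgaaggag
H2-DMb2, chr17:34145114-34145213, plus strand: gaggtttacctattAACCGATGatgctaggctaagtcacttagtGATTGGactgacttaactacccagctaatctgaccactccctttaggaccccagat
H2-DMb1, chr17:34153099-34153128, plus strand: AACTGATGatgctaggctgattcactcagt
H2-Aa, chr17:34287859-34287958, minus strand: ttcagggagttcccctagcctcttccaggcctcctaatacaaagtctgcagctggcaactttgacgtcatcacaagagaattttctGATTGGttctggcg

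In H2-Eb1 the X letters began 89 bases and the Y letters 60 bases before the start. H2-Ob had them at 85 and 58 bases, and H2-DMb2 at 121 and 91 bases. In H2-DMb1 they began at 92 and 62 bases, inside an exon of the GENCODE M21 annotation, so that 30 bases from the first base of X are shown and the Y letters follow directly. Over those 30 bases H2-DMb1 and H2-DMb2, which are near copies, had 26 in common. H2-Aa is shown as a promoter in which the Y letters, 49 bases before the start, were found without a match to AACNNATG. H2-Oa also had the Y letters alone, at 44 bases. Of the 2 windows of H2-DMa, 1 held neither motif and 1 held the Y letters at 199 bases. A match is a run of letters and not a measured binding site. An X box with other letters would be missed by this search, so a window without a match can still hold one.

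All 10 class II genes passed the filter on low counts, and 6 of them were called higher at 18 months and 0 lower. Over all genes tested 14.9% were called higher, 21.3% lower and 36.3% either way, and these shares stand behind each later count over all 6 libraries. The members' median log2 fold change was 2.96, and in each of the 10 the lowest 18-month library stood above the highest 2-month library, in FPKM and in counts per library total. By counts per library total, such a gap upwards occurred in 7270 of the 20397 genes tested (35.6%). H2-Eb1, H2-Ab1, Ciita, H2-DMa, H2-DMb1 and H2-DMb2 were called, and H2-Aa, Cd74, H2-Oa and H2-Ob were not. With 3 libraries against 3, an exact permutation test on 1 gene cannot give a p-value below 0.1, so the calls rest on edgeR's fit across all genes. Without 2-month replicate 2, all 10 were called higher and the median was 5.04. That library was the highest at 2 months for 9 of the 10, so a rise in their fold changes without it is built in. Calls rose over all genes too in that fit, to 23.3% called higher, which is the share behind each later count without that library. Without 2-month replicate 3, 3 were called (H2-Ab1, H2-DMa and H2-DMb2), and without any 1 of the 18-month libraries 4 were. Calls over all genes fell in those fits, from 3047 of 20397 genes higher to 2141 of 21356 without 2-month replicate 3. Without 18-month replicates 1, 2 and 3 in turn they were 2408 of 21536, 2119 of 21396 and 2095 of 21365. Later counts without these libraries come from the same fits.

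**Figure D1:**
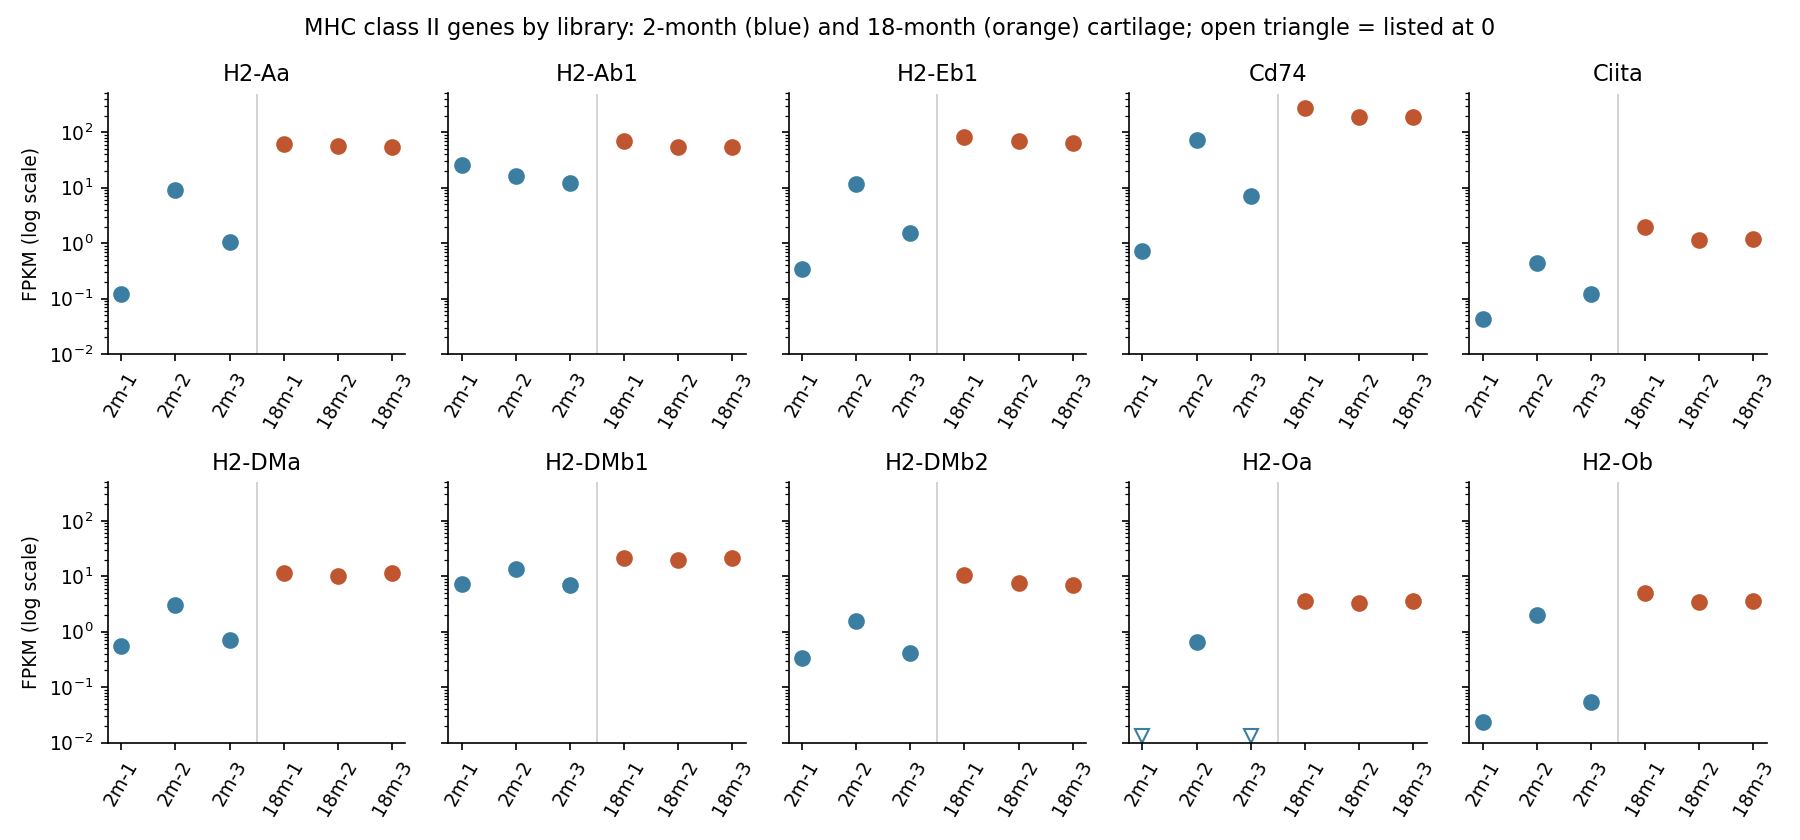
FPKM (log axis) of the 10 class II genes in each library, with 1 point per library, 2-month replicates 1 to 3 (2m) in blue and 18-month replicates 1 to 3 (18m) in orange. Open triangles mark H2-Oa listed at 0 in 2-month replicates 1 and 3. The 18-month points lie close together and above all 2-month points, while H2-Ab1 and H2-DMb1 keep a level of at least 6.88 FPKM in every 2-month library.

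The classical chains form the surface molecules. H2-Aa (chromosome 17, 34282744 to 34287823, minus strand) encodes the alpha chain of I-A and H2-Ab1 (34257689 to 34269419, plus strand) its beta chain. H2-Eb1 (34305867 to 34316674, plus strand) encodes the beta chain of I-E, the other class II molecule of the mouse. H2-Aa had 26, 2044 and 229 counts in 2-month replicates 1, 2 and 3, against 15673, 13532 and 13128 counts in 18-month replicates 1, 2 and 3. Its level was 0.124, 9.19 and 1.07 FPKM at 2 months and 61.4, 56.7 and 54.2 FPKM at 18 months. The young libraries thus spread far more widely than the aged libraries, and the groups did not overlap. The log2 fold change of H2-Aa was 4.05 ± 1.41 (SE, adjusted p = 0.0556), short of the threshold. It was 6.47 ± 0.95 (adjusted p = 0.00239) without 2-month replicate 2.

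H2-Eb1 followed H2-Aa in every library. It had 0.348, 11.5 and 1.55 FPKM at 2 months and 81.0, 68.5 and 65.2 FPKM at 18 months. Its log2 fold change was 3.99 ± 1.21 (adjusted p = 0.0371). The call was lost without 2-month replicate 3 (adjusted p = 0.107) and without 18-month replicate 1, 2 or 3 (0.0824, 0.0823 and 0.0809). The ratio of H2-Eb1 to H2-Aa in FPKM was 2.82, 1.25 and 1.45 at 2 months and 1.32, 1.21 and 1.20 at 18 months. It therefore stayed within a narrow range except in 2-month replicate 1, where the ratio stands on 38 and 26 counts. A gene on the opposite strand, Gm20513, overlaps H2-Eb1 but had at most 15 counts in a library.

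H2-Ab1 did not follow its partner chain at 2 months. It had 3557, 2465 and 1730 counts in 2-month replicates 1, 2 and 3 and 12076, 8650 and 8755 counts at 18 months. In FPKM these were 25.2, 16.4 and 11.99 against 69.9, 53.5 and 53.5. H2-Ab1 was thus well expressed in every young library, and its highest young level was in replicate 1, where H2-Aa, H2-Eb1, Cd74, Ciita, H2-DMa, H2-DMb2 and H2-Ob each had their lowest. The other 9 members were highest among the young libraries in replicate 2. H2-Ab1 rose with a log2 fold change of 1.64 ± 0.30 (adjusted p = 0.00723). It kept its call without each library in turn, with adjusted p-values of 0.0055 to 0.0256.

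The ratio of H2-Ab1 to H2-Aa shows how unequally the chains of I-A were represented. It was 204, 1.78 and 11.2 in 2-month replicates 1, 2 and 3 and 1.14, 0.945 and 0.986 in the 18-month libraries. The aged libraries thus had the RNAs for both chains at nearly equal FPKM, and 2 of the 3 young libraries had far more of the beta chain. No stretch of 150 bases of the H2-Ab1 transcript occurred in a transcript of another gene, and no annotated gene overlaps it. The ratios are given as values, without a test.

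**Figure D2:**
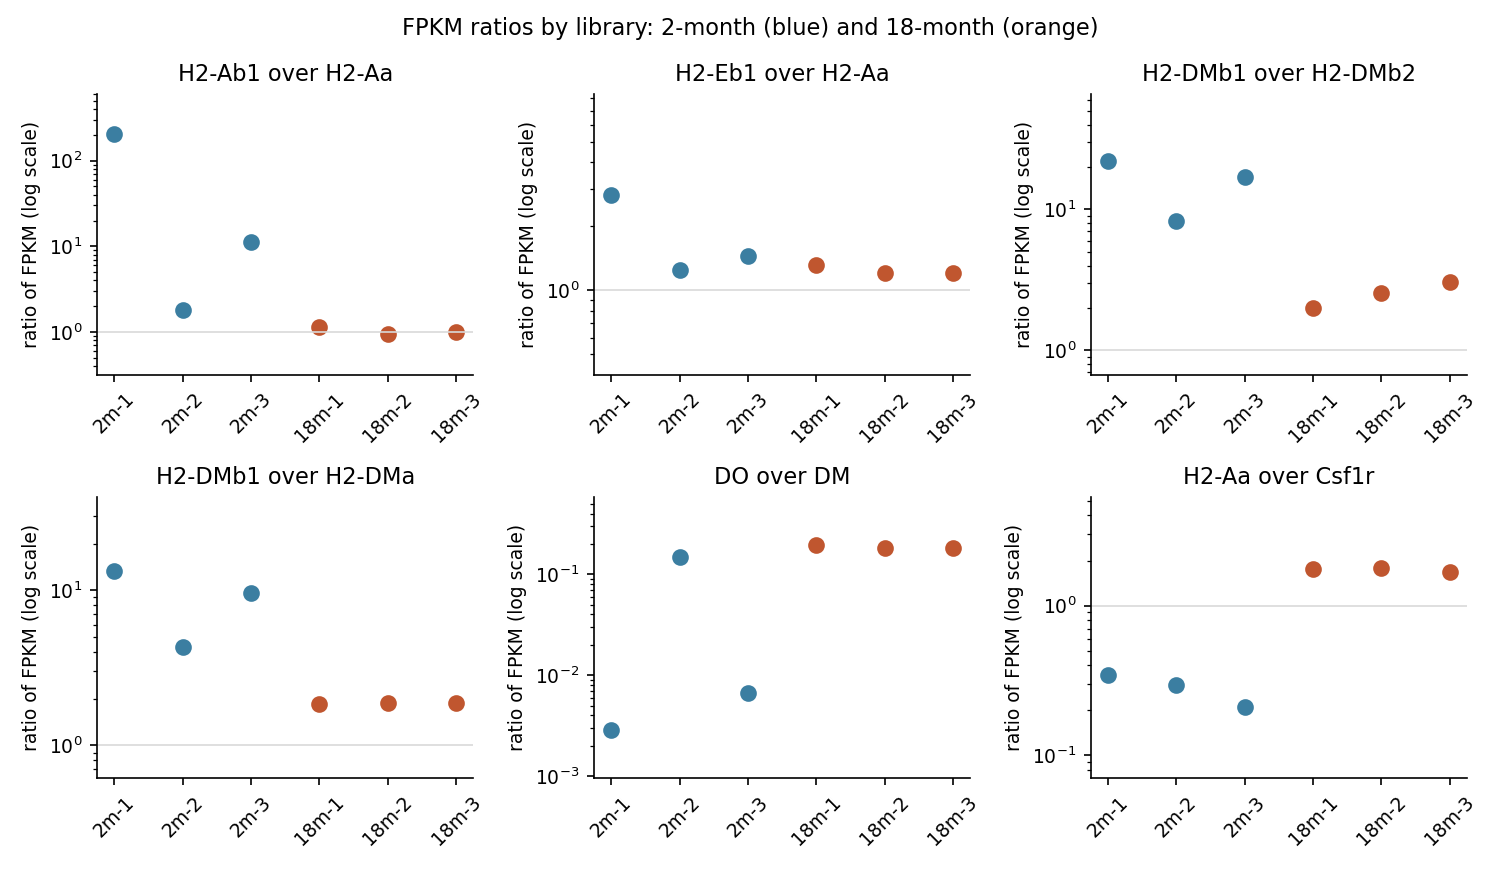
Ratios of FPKM (log axis, a scale for each panel) within each library, with 1 point per library, 2-month (2m) in blue and 18-month (18m) in orange, and a grey line at 1. DO is H2-Oa plus H2-Ob, and DM is H2-DMa, H2-DMb1 and H2-DMb2 summed. H2-Ab1 over H2-Aa falls from between 1.78 and 204 to about 1, and H2-DMb1 over H2-DMb2 from between 8.34 and 22.1 to between 2.01 and 3.03.

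Other class II loci were near the limit of detection. H2-Ea, the alpha chain gene of I-E, which is a pseudogene in some laboratory strains and is named H2-Ea-ps in GENCODE, was at 0 counts in 5 libraries and at 5 counts in 18-month replicate 2. H2-Eb1 RNA was therefore abundant at 18 months while that of its partner chain was not. H2-Eb2, a further beta chain gene, had 0, 35 and 0 counts at 2 months and 180, 169 and 163 counts at 18 months, with a log2 fold change of 3.70 ± 1.54 (adjusted p = 0.0912). H2-Pb had 0, 44 and 2 counts and then 14, 4 and 7, and did not pass the filter.

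Cd74 (chromosome 18, 60803848 to 60812646, plus strand) encodes the invariant chain, which blocks the groove and guides new class II molecules to the endosome. It was the member with the most RNA per length at 18 months. It had 67, 7031 and 660 counts at 2 months and 30752, 20031 and 20556 counts at 18 months. In FPKM these were 0.710, 71.6 and 6.98 against 272, 190 and 192. The level of 2-month replicate 2 was 32.8% of the 18-month mean, while those of replicates 1 and 3 were 0.326% and 3.20%. The log2 fold change was 3.04 ± 1.45 (adjusted p = 0.125) and did not pass the test. It was 5.70 ± 1.06 (adjusted p = 0.00576) without 2-month replicate 2. Cd74 stood at 5.74, 7.79 and 6.52 times the FPKM of H2-Aa at 2 months and at 4.44, 3.35 and 3.54 times at 18 months, so the ratio was higher in each young library than in any aged library.

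The order of the levels at 18 months was Cd74, H2-Eb1, H2-Ab1, H2-Aa, H2-DMb1, H2-DMa, H2-DMb2, H2-Ob, H2-Oa and Ciita. The mean levels ran from 218 ± 47.1 FPKM (SD, n = 3) for Cd74 to 1.41 ± 0.47 FPKM for Ciita. The range of H2-Ab1 overlapped those of H2-Eb1 and H2-Aa, while H2-Eb1, from 65.2 FPKM, lay above H2-Aa, which reached 61.4 FPKM. Ranges also overlapped between H2-DMa and H2-DMb2 and between H2-Ob and H2-Oa. At 2 months Cd74, H2-Ab1 and H2-DMb1 led, with means of 26.4 ± 39.2, 17.9 ± 6.73 and 9.14 ± 3.56 FPKM (SD, n = 3). Each member's range at 2 months overlapped that of its neighbour in the order. Within the 18-month group replicate 1 was the highest library for 9 of the 10 members, H2-Oa being the exception. That library also had the most chondrocyte RNA of its age, and whether these are linked was not tested.

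H2-DM is a pair of H2-DMa with H2-DMb1 or H2-DMb2, and it edits the peptides that class II molecules carry. H2-DMa (chromosome 17, 34119541 to 34139101, plus strand) had 0.549, 3.09 and 0.717 FPKM at 2 months and 11.6, 10.2 and 11.3 FPKM at 18 months. It rose with a log2 fold change of 2.88 ± 0.67 (adjusted p = 0.0153) and stayed called without each library in turn, at most at an adjusted p of 0.0499. Brd2, on the opposite strand, overlaps it and had 11319 to 15944 counts in the 6 libraries, against 106 to 2693 for H2-DMa. Whether reads were counted by strand is not given in the sources used here, so reads from the overlap cannot be assigned with certainty.

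The beta chains of H2-DM did not move together. H2-DMb2 (34143307 to 34151555, plus strand) had 0.330, 1.59 and 0.406 FPKM at 2 months and 10.6, 7.51 and 6.95 FPKM at 18 months. H2-DMb1 (34153072 to 34160230, plus strand) had 7.30, 13.2 and 6.88 FPKM and then 21.4, 19.3 and 21.1 FPKM. H2-DMb1 thus had a clear level in every young library, and H2-DMb2 followed H2-DMa. The log2 fold change was 3.38 ± 0.65 (adjusted p = 0.00836) for H2-DMb2 and 1.11 ± 0.24 (adjusted p = 0.012) for H2-DMb1. H2-DMb2 kept its call without each library in turn. The fold change of H2-DMb1 dropped under the limit without 2-month replicate 1 or 3, to 0.995 and 0.965 on the log2 scale.

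H2-DMb1 stood at 22.1, 8.34 and 16.9 times the FPKM of H2-DMb2 in the young libraries and at 2.01, 2.57 and 3.03 times in the aged libraries. Its ratio to H2-DMa went from 13.3, 4.28 and 9.60 to 1.84, 1.89 and 1.87. The ratio of H2-DMb2 to H2-DMa stayed between 0.514 and 0.915 in all 6 libraries. The share of H2-DMb1 in H2-DM RNA was thus lower in each aged library than in any young library. The genes are near copies, with 93.7% identity over 1220 aligned bases of their longest coding transcripts, and 72 of the 1255 stretches of 150 bases in H2-DMb1 also occurred in H2-DMb2. Reads from those stretches could be split between them by the authors' counting, and with the counts of both summed the log2 fold change was 1.50 (adjusted p = 0.00656).

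H2-DO, made of H2-Oa and H2-Ob, restrains H2-DM and is best known from B cells. H2-Oa (34092340 to 34095234, plus strand) had 0, 55 and 0 counts at 2 months and 336, 291 and 322 counts at 18 months. Its RNA was thus found at 2 months in replicate 2 alone. The log2 fold change over all 6 libraries was 3.95 ± 1.67 (adjusted p = 0.0935). Against a floor of 3 counts in each of 2-month replicates 1 and 3 it was at least 89.7-fold higher at 18 months, which is 6.49 on the log2 scale. BC051537, a gene on the opposite strand with 0 to 34 counts in a library, overlaps H2-Oa.

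H2-Ob (34238903 to 34249309, plus strand) had 7, 625 and 17 counts at 2 months and 1789, 1172 and 1240 counts at 18 months. In FPKM these were 0.0234, 1.98 and 0.0535 against 4.94, 3.46 and 3.61. The young replicate 2 reached 49.4% of the 18-month mean, the highest such share of the 8 members other than H2-Ab1 and H2-DMb1. The log2 fold change was 2.54 ± 1.52 (adjusted p = 0.204), and 6.52 ± 0.41 (adjusted p = 0.000137) without that library. The summed FPKM of H2-Oa and H2-Ob over that of H2-DMa, H2-DMb1 and H2-DMb2 was 0.00286, 0.147 and 0.00669 at 2 months and 0.195, 0.182 and 0.183 at 18 months. Replicate 2 was thus close to the aged libraries in this ratio and the other young libraries were far below.

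**Figure D3:**
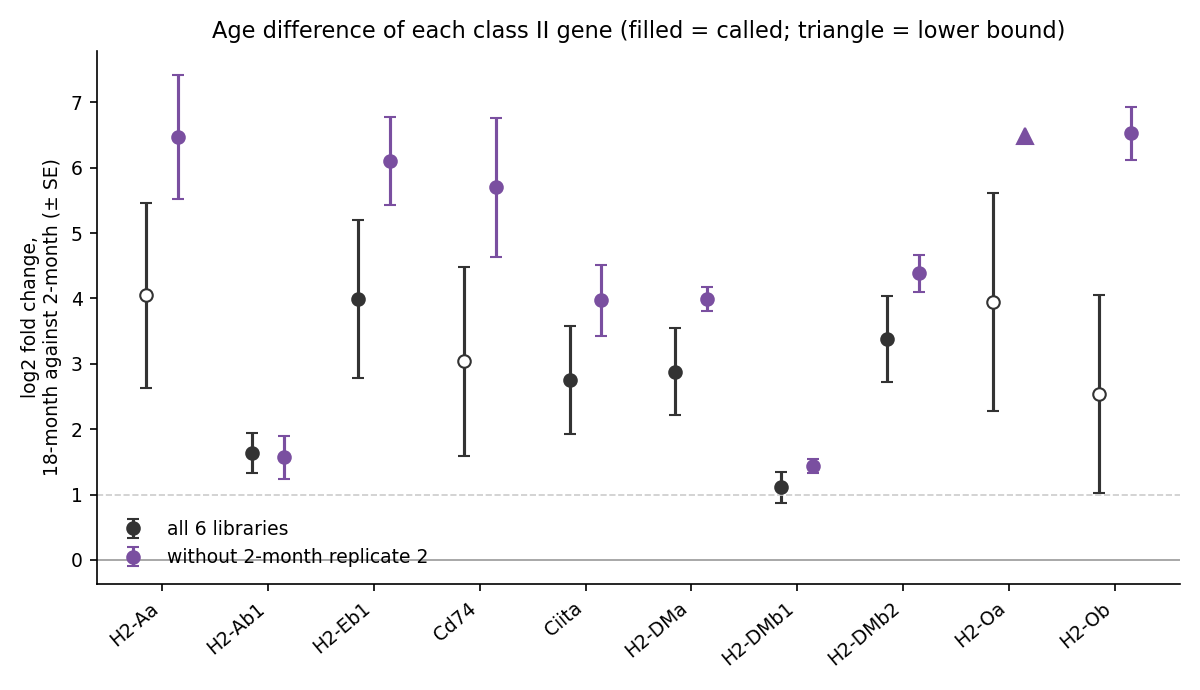
Log2 fold change (18-month against 2-month, edgeR) of each class II gene with its SE as a bar, over all 6 libraries (black) and without 2-month replicate 2 (purple). Filled points were called, open points were not, the dashed line marks a log2 fold change of 1, and the triangle is the lower bound of 6.49 for H2-Oa. H2-Ab1 and H2-DMb1 change least, at 1.64 and 1.11. Without that library, which was the highest at 2 months for 9 members, those 9 lie higher and H2-Ab1 lies at 1.57.

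Ciita (chromosome 16, 10480059 to 10526426, plus strand) encodes the coactivator that turns the class II genes on without binding DNA itself. It had 23, 251 and 66 counts at 2 months and 1258, 676 and 714 counts at 18 months. Its level was 0.0432, 0.446 and 0.121 FPKM against 1.96, 1.12 and 1.17 FPKM, with the lowest mean of the members at either age. The log2 fold change was 2.75 ± 0.82 (adjusted p = 0.035). The call was lost without 2-month replicate 3 (adjusted p = 0.109) and without 18-month replicate 1, 2 or 3 (0.0921, 0.0733 and 0.0753). The ratio of Ciita to H2-Aa was 0.349, 0.0486 and 0.113 at 2 months and 0.0319, 0.0198 and 0.0215 at 18 months, so Ciita stood higher relative to H2-Aa in each young library than in any aged library. Dexi on the opposite strand overlaps Ciita and had 241 to 674 counts in a library.

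The genes for the proteins that sit on the X and Y boxes had small fold changes. Of the 7 genes of this complex 1 was called higher and 0 lower, with a median log2 fold change of 0.33. Nfyb, a subunit of NF-Y, rose from 4.18, 5.59 and 4.78 FPKM to 10.7, 11.1 and 11.1 FPKM, with a log2 fold change of 1.10 ± 0.11 (adjusted p = 0.00156). The RFX subunit genes Rfx5, Rfxank and Rfxap had log2 fold changes of -0.43, -0.48 and -0.49, under the limit of 1 in size. Nfya, Nfyc and Creb1 had 0.64, 0.56 and 0.33. The count was again 1 higher and 0 lower without 2-month replicate 2.

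Interferon-gamma from T and NK cells is a known inducer of Ciita. Of its 9 listed genes 8 were tested, and 4 were called higher and 0 lower, with a median log2 fold change of 1.20. The receptor gene Ifngr1 rose from 10.1, 22.5 and 11.1 FPKM to 62.9, 65.8 and 65.5 FPKM, a log2 fold change of 2.10 ± 0.30 (adjusted p = 0.00338). Ifngr2, the other receptor chain, and Irf1, a transcription factor induced by interferons, rose by 1.44 and 1.68 on the log2 scale (adjusted p = 0.0271 and 0.0167). The kinase gene Jak1 had 0.73. Ifng itself did not pass the filter, with 0 counts in each 2-month library and 10, 5 and 5 counts at 18 months. Leaving out 1 library gave between 1 call (2-month replicate 3 or 18-month replicate 3) and 5 calls (2-month replicate 2).

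Ciita is also regulated by transcription factors of the blood lineages, and those listed are not all activators. Of 9 such genes edgeR called 0 higher and 2 lower, with 1 higher at an unadjusted p below 0.05 and 1 called higher in DESeq2, and a median log2 fold change of 0.54. The factors called lower were Tcf4 and Bcl6. Tcf4, which is used by plasmacytoid dendritic cells but also by many other tissues, had -2.15 ± 0.21 (adjusted p = 0.00143). Bcl6, a repressor known from germinal centre B cells, had -1.50 ± 0.35 (adjusted p = 0.0152). Bcl6 had 22.0, 12.4 and 25.0 FPKM at 2 months, lowest in replicate 2, where the B cell markers were highest. Spi1, the myeloid factor PU.1, was the most abundant of the list with 0.0850, 13.7 and 1.64 FPKM at 2 months and 66.2, 60.6 and 62.2 FPKM at 18 months. Its log2 fold change of 3.61 ± 1.50 did not pass the test (adjusted p = 0.0902). Of the 9, 5 were called higher and 2 lower without 2-month replicate 2.

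Peptides for class II are made by proteases of the lysosome. The 11 genes listed for antigen processing were not all proteases. Of them 2 were called higher, a share near the 14.9% over all genes, and 0 lower, with a median log2 fold change of -0.21. Ctss encodes cathepsin S, which trims the invariant chain in B cells and dendritic cells, and it rose from 1.09, 32.0 and 7.86 FPKM to 197, 187 and 184 FPKM. Its log2 fold change was 3.78 ± 1.11 (adjusted p = 0.0335). Ifi30, the lysosomal thiol reductase, rose by 1.48 ± 0.34 on the log2 scale (adjusted p = 0.0146). Ctsd and Hspa8, the most abundant of the list, had log2 fold changes of -0.83 and 0.60. The ratio of H2-Aa to Ctss was 0.114, 0.287 and 0.136 at 2 months and 0.311, 0.302 and 0.295 at 18 months, so 2-month replicate 2 was near the aged libraries. The list had 3 genes called higher without 2-month replicate 2 and 0 without 2-month replicate 3.

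Of 4 genes that set how long class II stays on the surface 3 were called higher, with a median log2 fold change of 1.57. Leaving out 2-month replicates 1, 2 and 3 in turn gave 1, 3 and 0 calls, and leaving out any 18-month library gave 0, as did the fit with no filter. Marchf1 encodes the ubiquitin ligase that removes class II from the surface, and it had 1, 305 and 44 counts at 2 months and 2207, 2771 and 2630 counts at 18 months. It rose by 4.29 ± 1.44 on the log2 scale (adjusted p = 0.0494). Cd83, which opposes Marchf1, rose by 1.06 (adjusted p = 0.0341), and Il10, a cytokine that raises Marchf1, by 2.08 (adjusted p = 0.0472) from at most 18 counts. Marchf8, the broader relative, had a log2 fold change of 0.80, under the limit.

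Co-stimulatory genes act beside class II when a T cell is primed. Of 8 genes 2 were called higher and 0 lower, with a median log2 fold change of 2.64. Cd274, which encodes the inhibitory ligand PD-L1, rose by 2.27 ± 0.33 on the log2 scale (adjusted p = 0.00369). Tnfsf4, the OX40 ligand, was called at 0, 0 and 0 counts against 29, 13 and 26, a low level. Cd80, Cd86, Cd40, Icosl and Pdcd1lg2 had log2 fold changes of 1.29 to 3.50 that did not pass the test, and Icam1 had -0.99. Without 2-month replicate 2, 7 were called higher and 1 lower. On the T cell side, 1 of 4 tested genes was called, the inhibitory receptor gene Ctla4, at 2.38 ± 0.57 (adjusted p = 0.017). Cd4, whose protein binds class II, had 4, 197 and 28 counts at 2 months and 759, 736 and 699 counts at 18 months, with an adjusted p of 0.0715. Cd40lg, at 0 counts in the 2-month libraries, did not pass the filter. Lag3, a further receptor for class II, had 0.95 and Cd28 had -1.10 on the log2 scale, and neither was called. On this side 3 genes were called higher without 2-month replicate 2 and 0 without 2-month replicate 3 or 18-month replicate 2.

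Markers of the cells known to carry class II were counted in the same fit, which called 14.9% of all genes higher and 21.3% lower. Of 10 B cell markers 1 was called higher and 0 lower, of 12 monocyte and macrophage markers 3 and 0, and of 10 dendritic cell markers 1 and 1. The medians of their log2 fold changes were 1.28, 3.20 and 2.57. Without 2-month replicate 2 the counts called higher were 9, 10 and 8, and without 2-month replicate 3 they were 0, 0 and 0. Leaving out any 18-month library gave 1, 1 and 0, and leaving out 2-month replicate 1 gave 1, 5 and 0. The summed B cell markers, led by Cd79a and Cd79b, the signalling chains of the B cell receptor, had 1.86, 97.6 and 2.21 FPKM at 2 months and 96.0, 76.3 and 73.6 FPKM at 18 months. In 2-month replicate 2 they were thus at 119% of the 18-month mean, and the B cell precursor markers at 182%. In that library H2-Aa was at 16.0% and Cd74 at 32.8% of the 18-month mean.

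The monocyte and macrophage markers, led by Ly6c2 and C1qb, summed to 31.5, 180 and 56.1 FPKM at 2 months and 629, 619 and 614 FPKM at 18 months. They were at 5.08%, 29.0% and 9.05% of the 18-month mean in 2-month replicates 1, 2 and 3. The 8 members other than H2-Ab1 and H2-DMb1, summed, were at 0.567%, 26.6% and 2.90%, and the erythroid markers at 0.793%, 20.3% and 2.17%. The dendritic cell markers, led by Clec10a and Siglech, had 3.85, 13.3 and 3.39 FPKM and then 26.8, 22.6 and 20.6 FPKM, with 5 of the 10 at 0 in 2-month replicate 1 and 3 in replicate 3. In 2-month replicate 1 the B cell, monocyte and dendritic cell markers stood at 2.26%, 5.08% and 16.5% of the 18-month mean, while H2-Ab1 stood at 42.7%. H2-DMb1 was at 35.5% there and the other 8 members, summed, at 0.567%. The part of these cells in the members' values was not tested.

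**Figure D4:**
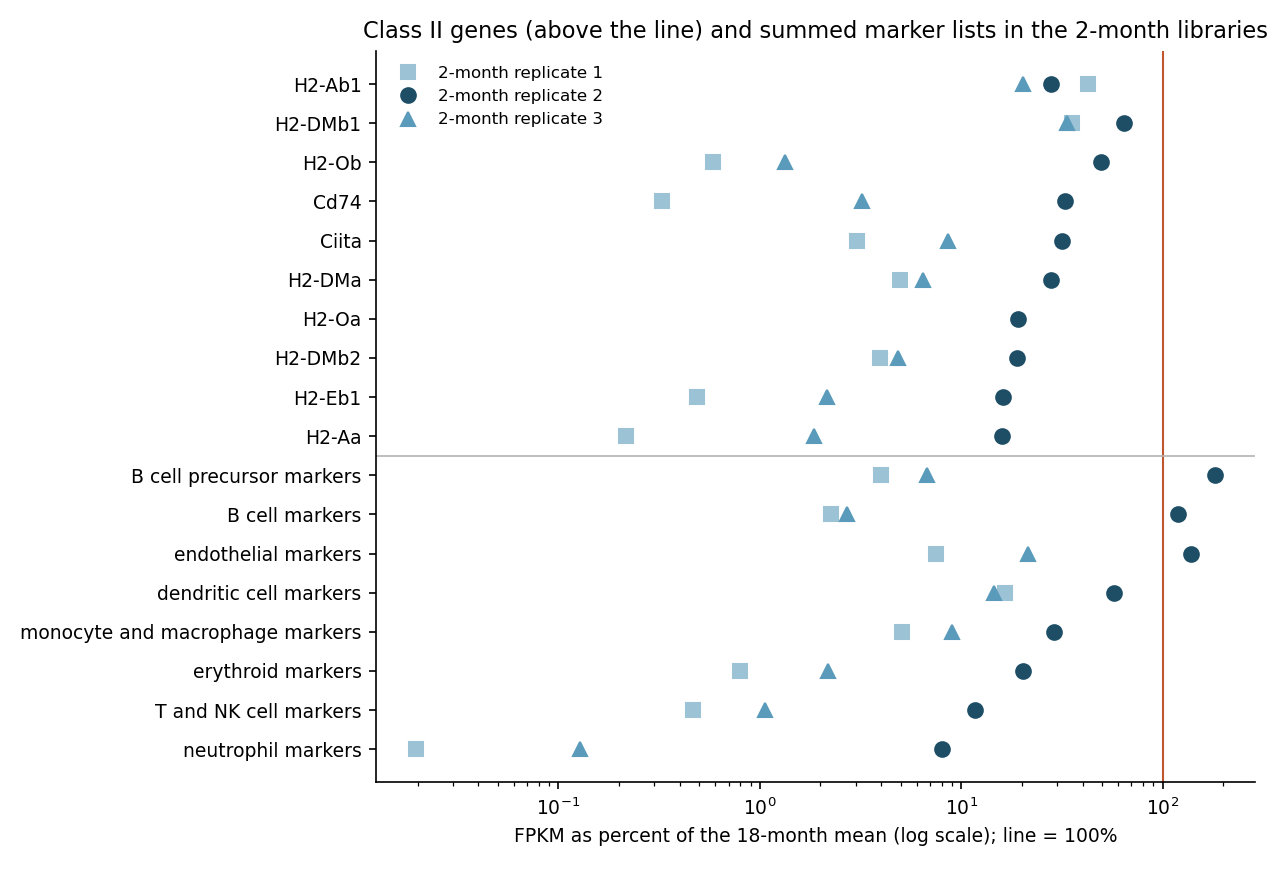
FPKM of each class II gene (above the grey line) and summed FPKM of 8 marker lists (below it) in 2-month replicates 1 (square), 2 (circle) and 3 (triangle), as a percent of the 18-month mean on a log axis. The orange line is 100%, and H2-Oa at 0 in replicates 1 and 3 is not drawn. In replicate 2 the B cell markers lie at 119% and the class II genes between 16.0% and 64.4%, and H2-Ab1 and H2-DMb1 stay above 20% in all 3 libraries.

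The members were also set against single markers within each library. The FPKM of the 3 classical chains together was 71.6, 1.19 and 2.87 times that of Csf1r, the CSF1 receptor of monocytes and macrophages, at 2 months and 6.06, 5.59 and 5.36 times at 18 months, the first value being nearly all H2-Ab1. H2-Aa alone stood at 0.345, 0.294 and 0.210 times the FPKM of Csf1r at 2 months and at 1.75, 1.77 and 1.68 times at 18 months. Against Cd79a the classical chains stood at 64.0, 1.24 and 30.5 times and then 7.57, 8.72 and 8.84 times. H2-Aa alone was at 0.309, 0.307 and 2.24 times at 2 months and 2.19, 2.76 and 2.77 times at 18 months. H2-Ob stood at 0.0583, 0.0661 and 0.112 times the FPKM of Cd79a at 2 months and at 0.176, 0.169 and 0.184 times at 18 months. Each aged library was thus above each young library in H2-Ob over Cd79a and in H2-Aa over Csf1r, but not in the other ratios given here. Both of these ratios were added after values had been seen. In 2-month replicates 1 and 3 H2-Ob over Cd79a rests on 7 over 33 and 17 over 40 counts. H2-Aa over Csf1r rests on 26 over 115 counts in 2-month replicate 1.

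Markers of other cell types were counted as well, and several of the counts turned on single libraries. Of 10 T and NK cell markers, led by Nkg7 and Trac, 7 were called higher, with a median log2 fold change of 4.01. Their count was 1 without any of the 18-month libraries, 4 and 3 without 2-month replicates 1 and 3 and 10 without 2-month replicate 2. Of 8 erythroid markers, led by the globin genes Hbb-bs and Hbb-bt, 3 were called higher, with a median of 3.74. That count was 8 in DESeq2 and without 2-month replicate 2, 1 with total counts, and 0 with no filter or without any other library. The 10 neutrophil markers had a median of 5.01 and 0 calls in edgeR, with 3 at an unadjusted p below 0.05, 9 called in DESeq2 and 10 called in edgeR without 2-month replicate 2. Plasma cells lose class II as they mature, and 2 of their 7 markers were called higher, Jchain and Tnfrsf17, the latter at 0 in all 2-month libraries, while the abundant Xbp1 had a log2 fold change of -0.11. B cell precursor markers, led by Dntt and Igll1, had 0 calls of 8 in edgeR and in DESeq2 and 0 at an unadjusted p below 0.05, with 7 called without 2-month replicate 2. Of 6 endothelial markers, led by Pecam1 and Cdh5, 1 was called higher, with 5 without 2-month replicate 2. Of 8 synovial and fibroblast markers, led by Col1a1 and Dcn, 1 was called higher and 3 lower.

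The genes whose profile over the 6 libraries lay nearest to the mean of H2-Aa, H2-Ab1, H2-Eb1 and Cd74 were Ly86, Itgb7, Arhgef39, Tlr8 and Rnase6. The distance was Euclidean, on centred log2(FPKM + 0.1) values, and was taken over 14009 genes with a mean of at least 1 FPKM. It was 0.225 for Ly86 and 0.412 for Rnase6. Ly86 had 0.0204, 1.85 and 0.314 FPKM at 2 months and 9.73, 7.94 and 8.90 FPKM at 18 months. The members' own distances from that mean were 4.49 for H2-Ab1 and 4.36 for H2-DMb1, against 1.14 to 1.91 for the other 7 ranked. These 2 genes thus lay farthest from it. H2-Ab1 is itself part of the mean, and each ranked member lay farther from it than Rnase6 did. Nearness to the mean is therefore not nearness to a single member. All 6 libraries were used for this description, and it carries no test.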

How the data were processed

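RNA of articular cartilage from WT mice was sequenced by the authors in 3 libraries at 2 months and 3 at 18 months, from poly(A)-selected, strand-specific libraries with molecular identifiers, read as pairs. Raw counts of each gene were deposited by the authors as whole numbers, beside FPKM values that scale them by transcript length and library total. The submitters' processing notes list cutadapt 1.9, HISAT2 2.0.4, UMI-tools, StringTie 1.3.4d, DESeq2 and edgeR, without their roles. The build, the annotation and the strand setting of the counting are not given in the sources used here. Positions match GENCODE M21 (GRCm38), with identical coordinates for 30925 of 33865 genes found there. The members Ciita, Cd74 and H2-Ob end elsewhere in it.

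The test was edgeR 4.0.16 in R 4.3.3 on the raw counts (TMM, filterByExpr, quasi-likelihood test, no replicate block), and p-values were adjusted over all 20397 genes tested. The SE is the log2 fold change over the square root of F. The floor for a count of 0 was 3 counts in each library and covers counting error only. Alternatives were RLE factors, total counts, TMM without the 100 most abundant genes, other filters, DESeq2 1.42.0, limma 3.58.1 on log2(FPKM + 0.1) with pseudocounts of 1 and 0.01 and on FPKM rescaled to TPM, glmTreat, a replicate block, H2-DMb1 and H2-DMb2 summed, and each library left out. Fold changes in limma are on the log2(FPKM + pseudocount) scale and depend on the pseudocount for low genes. The method was run on simulated data in which no library stood apart from its group, so that run does not cover such a case. Libraries of an age differed by at least 6.32 times the chi-square that counting gives, and each was kept as a sample. Figures were drawn in Python 3.11.15 with matplotlib 3.10.9.

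The members, the related lists and the markers were chosen with earlier results of these data known. All members were named. From related lists the named genes were the called genes with the 4 largest fold changes, the 2 most abundant and those that did not pass the filter, and lists of up to 8 could be named whole. From marker lists the 2 most abundant genes and those at 0 in a whole age were named. Ratios of H2-Eb1, Csf1r and Ctss to or from H2-Aa alone, those within H2-DM, H2-Ob over Cd79a, the percents of the 18-month mean and Xist were added after values had been seen. A named gene of a related list is not reported here.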

Additional observations from a re-analysis of the deposited data

How the results depend on the processing

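The members kept their direction throughout. Each of the 180 fold changes of single members under an alternative was above 0. Of the 10 members, 6 were called over all libraries, and 5 to 7 with RLE factors, total counts, TMM without abundant genes, no filter, DESeq2, genes at 1 FPKM or more on average and limma on TPM. limma on log2(FPKM + 0.1), log2(FPKM + 1) and log2(FPKM + 0.01) called 10 each, and glmTreat against a fold change of 2 called 2, H2-DMa and H2-DMb2. Ciita was not tested among genes at 1 FPKM or more. The median log2 fold change of 2.96 was 2.18 in limma on log2(FPKM + 1), 3.56 on log2(FPKM + 0.1) and 4.19 on log2(FPKM + 0.01). Fold changes in limma depend on the pseudocount for low genes, and the median was higher at each smaller one. How far this accounts for the distance from edgeR's median was not tested.

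Leaving out 1 library gave 3 to 10 calls and a median of 2.49 to 5.04. The extremes in calls were 2-month replicate 3 (3) and 2-month replicate 2 (10). With H2-Oa set to its bound the median without 2-month replicate 2 was again 5.04.

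The labels number the libraries within each age and name no pairing. Deviations from the mean of their age correlated at 0.03, 0.04 and -0.02 between same-numbered libraries. With 3 libraries per age, of which single ones stood apart, these values cannot decide whether libraries were paired. With the replicate block 5 members were called, with a median of 4.22, and Ciita was not (adjusted p = 0.0655). H2-DMb1 was also not called in limma on TPM (log2 fold change 0.80), which moved the median of all genes to -0.33, and H2-Eb1 was not called without a filter. Of 684 counts over the related and marker lists, 151 moved by more than 1.5 times, 62 of them on leaving out 1 library. Over all genes the calls were 3047 higher and 4354 lower, against 4365 and 4259 in limma on log2(FPKM + 0.1), 3041 and 2217 on log2(FPKM + 1), 3104 and 5825 on TPM and 1366 and 2667 in glmTreat.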
